A study of Mus musculus with 4 samples.

Results

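The genes described here encode 10 receptors and junction proteins of endothelial cells. They are the vascular endothelial growth factor (VEGF) receptors Kdr, Flt1 and Flt4, the VEGF co-receptors Nrp1 and Nrp2, the angiopoietin receptor Tek and its relative Tie1, the junction proteins Cdh5 and Pecam1, and the BMP and TGF-β co-receptor Eng. They were chosen by name for their role, with Kdr included because it encodes FLK1, the surface protein by which the cells were sorted, and they are 10 of 22208 protein-coding gene symbols of the annotation. Each locus was taken as the gene body with 5 kb upstream on mouse genome build mm9 (NCBIM37), and all coordinates below are in that build. The measurement was chromatin immunoprecipitation followed by sequencing (ChIP-seq) of RYBP in FLK1+ mesoderm from wild-type mouse embryoid bodies (EBs), the aggregates that embryonic stem (ES) cells form as they differentiate.

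The series holds 4 samples, 2 RYBP ChIP samples and 2 inputs. The labels give all 4 as EBs of day 3.75 on a C57Bl/6 X Sv129 background, and the antibody as anti DEDAF, another name of RYBP. The study's methods name J1 as the wild-type ES line and a slightly later day for RYBP, and describe bead isolation of FLK1+ cells, whereas the design text names SCL as the precipitated factor and adds that the cells lacked PDGFRα. Independent differentiations are mentioned only in that design text. Both ChIP samples are of 1 genotype, so no condition was compared, and the inputs were not analysed here. Because peaks carry no expression level, the sort on FLK1 could not be checked against Kdr transcript.

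RYBP is a subunit of non-canonical Polycomb repressive complex 1 (ncPRC1), which places ubiquitin on histone H2A and is found mostly at promoters rich in CpG dinucleotides. KDR, the main signalling receptor for VEGF-A, marks the mesoderm from which blood and endothelium arise, and its relatives FLT1 and FLT4 act as a decoy for VEGF-A and as the receptor for VEGF-C. Neuropilins bind both VEGFs and class 3 semaphorins, TEK binds angiopoietins as the vessel matures, and VE-cadherin (Cdh5) and PECAM1 hold endothelial cells together.

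Replicate 1 listed 14794 peaks with a median fold enrichment of 3.29, and replicate 2 listed 18154 peaks with a median of 3.60. Fold enrichment is the linear ratio of ChIP signal to local background that the authors' peak caller gave each peak, and −log10 q is the caller's significance after adjustment, with medians of 2.27 and 2.63. The authors' merged list of 22409 regions was the union of both peak lists, and 9901 of its regions overlapped a peak of each replicate by at least 1 bp. Such a region is described below as found in both replicates. The deposited peak lists carry no read counts. The study lists read totals for both libraries, with more mapped reads for replicate 1, and these entered no calculation here. A locus without a region is one where no peak was listed.

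RYBP regions were found at 7 of the 10 loci, namely Kdr, Flt1, Flt4, Nrp1, Nrp2, Tie1 and Eng, and none lay at Tek, Cdh5 or Pecam1. Of all protein-coding loci, 57.1% held a merged region. Regions found in both replicates lay at 5 of the 10 loci, against 38.9% of all loci. These were all 3 VEGF receptors and both neuropilins, and each of them had such a region within 2.5 kb of a start of a protein-coding transcript, a position held by 36.8% of all genes. Counting regions of either replicate, 6 of the 10 genes had one in this start window, against 53.4% of all genes, the sixth being Eng. Long loci hold regions more often, and 80.7% of loci over 100 kb held a merged region and 63.3% one found in both replicates. When each member was given the share of its own length class, the shares summed to 7.38 loci with a merged region and 5.34 with one found in both replicates. The number of occupied members was therefore close to that of genes of their length, and the description below concerns which members were occupied and where.

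**Figure D1:**
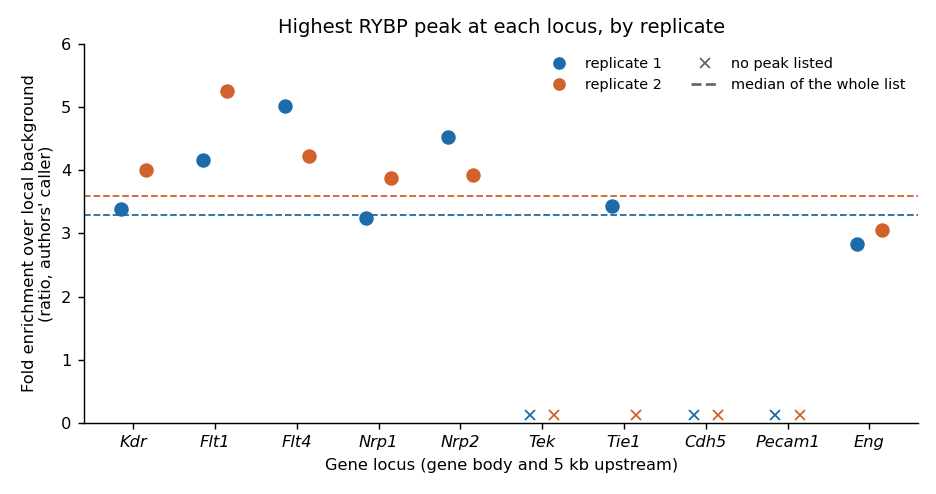
Highest fold enrichment of any RYBP peak at each locus in replicate 1 (blue) and replicate 2 (orange), as the ratio given by the authors' caller. Crosses mark replicates with no listed peak, drawn near 0 only to be visible, and dashed lines mark the medians of the whole lists (3.29 and 3.60). The 5 VEGF receptor and neuropilin loci and Eng carry a peak in each replicate, those at Eng without overlap, and Tek, Cdh5 and Pecam1 in neither.

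The 10 loci held 15 merged regions, of which 7 were found in both replicates, 7 in replicate 1 alone and 1 in replicate 2 alone. The share found in both was 46.7% (exact 95% interval 21.3% to 73.4%), against 44.2% of all merged regions. Replicate 1 had 14 peaks at these loci, of which 7 overlapped a replicate 2 peak (exact 95% interval of the share 23.0% to 77.0%), against 69.0% of its whole list. Replicate 2 had 8 peaks, of which 87.5% (exact 95% interval 47.3% to 99.7%) overlapped a replicate 1 peak, against 56.4% of its whole list. Such intervals reflect counting error alone, and the peaks of 1 library are not replicates of each other. At the members the library with the shorter peak list, which the study lists with more mapped reads, thus had the larger number, and 5 of its 7 peaks without a partner lay within Flt1 and Flt4.

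The stretches of 300 bases just upstream of the main start are shown for 4 members, in mm9 and 5′ to 3′ on the strand of the gene, with every CpG in capitals. The main start is the 5′-most one of the largest cluster of coding starts. Kdr (chr5:76374484-76374783, minus strand) is the sorted receptor, Flt4 (chr11:49422465-49422764, plus strand) is the occupied gene whose peaks begin past its start, and Nrp2 (chr1:62749559-62749858, plus strand) has the most CpGs. Tek (chr4:94405680-94405979, plus strand) had no RYBP region.
Kdr: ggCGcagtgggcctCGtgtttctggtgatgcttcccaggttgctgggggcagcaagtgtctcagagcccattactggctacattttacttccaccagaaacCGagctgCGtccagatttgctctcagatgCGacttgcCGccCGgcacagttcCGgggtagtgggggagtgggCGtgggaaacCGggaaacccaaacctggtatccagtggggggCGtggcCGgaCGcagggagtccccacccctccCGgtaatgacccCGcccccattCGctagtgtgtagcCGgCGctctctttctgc
Flt4: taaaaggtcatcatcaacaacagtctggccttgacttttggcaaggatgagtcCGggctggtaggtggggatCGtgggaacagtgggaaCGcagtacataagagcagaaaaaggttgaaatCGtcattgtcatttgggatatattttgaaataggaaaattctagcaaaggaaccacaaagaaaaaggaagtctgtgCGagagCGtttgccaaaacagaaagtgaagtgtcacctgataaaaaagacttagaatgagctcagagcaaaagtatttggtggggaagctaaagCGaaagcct
Nrp2: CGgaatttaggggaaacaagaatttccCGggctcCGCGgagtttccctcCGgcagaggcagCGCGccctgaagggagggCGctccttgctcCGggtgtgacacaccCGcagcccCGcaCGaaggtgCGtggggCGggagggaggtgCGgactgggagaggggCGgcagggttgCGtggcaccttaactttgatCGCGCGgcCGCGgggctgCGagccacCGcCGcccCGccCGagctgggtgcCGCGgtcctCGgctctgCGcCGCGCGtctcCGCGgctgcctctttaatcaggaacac
Tek: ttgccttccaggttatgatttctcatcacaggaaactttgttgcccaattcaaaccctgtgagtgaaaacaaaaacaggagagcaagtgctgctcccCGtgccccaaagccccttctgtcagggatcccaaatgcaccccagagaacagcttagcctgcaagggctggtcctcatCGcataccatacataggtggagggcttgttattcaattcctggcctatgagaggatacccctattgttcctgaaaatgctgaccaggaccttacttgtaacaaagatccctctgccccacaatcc
These windows held 18 CpGs at Kdr, 7 at Flt4, 36 at Nrp2 and 2 at Tek, against a median of 9 over the windows of all protein-coding genes. Those of 5 other members held 24 at Flt1, 14 at Nrp1, 6 at Tie1, 4 at Pecam1 and 4 at Eng. All 300 bases lay under a peak of both replicates at Flt1, Nrp1 and Nrp2 and under the replicate 1 peak alone at Kdr. No base of the window lay under a peak at Flt4, Tek, Tie1, Pecam1 or Eng. None of these 9 windows overlapped an annotated exon of a protein-coding gene.

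Kdr had a single RYBP region, chr5:76373725-76374813, which spanned its start. The region was 1089 bp wide, with 6.34 CpG per 100 bp, and ran from 330 bp upstream to 758 bp downstream of the main start at position 76374483, over exon 1 and into intron 1. Fold enrichment was 3.38 in replicate 1 (−log10 q 2.56) and 4.0 in replicate 2 (−log10 q 3.90), a mean of 3.69 ± 0.437 (SD, n = 2). Within their own lists these values stood at the percentiles 55.6 and 68.0, so the peak on the gene of the sorting marker was of middling height in both libraries. The replicates did not cover the same bases. The replicate 1 peak of 666 bp ran from 330 bp upstream to 335 bp downstream of the start, and the replicate 2 peak of 727 bp from 32 to 758 bp downstream, with 304 bp in common. The start base of Kdr lay under a peak in replicate 1 and not in replicate 2. No merged region lay in the gene body beyond 1 kb from the start.

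Kdr lies in a cluster of receptor tyrosine kinase genes with Pdgfra, whose product marks paraxial and cardiac mesoderm, and Kit, the stem cell factor receptor. From Pdgfra to Kdr there were 4 merged regions, 3 of them found in both replicates, with 1 of those at the start of each gene. The Pdgfra region was by far the widest at 9035 bp, formed from 3 peaks in replicate 1 and 2 in replicate 2, with a highest fold enrichment of 4.03 and 4.01. Kit had a region of 1834 bp with a fold enrichment of 4.09 and 5.60, and a further one of 735 bp in replicate 1 alone with 3.04. No merged region lay between the Kit and Kdr loci, whose genes are 276 kb apart.

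Flt1 had the highest start peak by the mean of the replicates. Its region chr5:148536485-148539240 was 2756 bp wide and spanned the start at position 148537587, reaching 1653 bp upstream and 1102 bp downstream over exon 1 and part of intron 1. Fold enrichment was 4.16 in replicate 1 and 5.26 in replicate 2, with −log10 q of 5.28 and 7.80 and percentiles of 87.8 and 93.5. The replicates shared 1790 bp and both covered the start base. Flt1 held 3 more regions, all of replicate 1 alone, in intron 1 at 2007 and 3901 bp and in intron 14 at 109003 bp downstream of the start. Their fold enrichments were 2.91, 3.01 and 2.93, all below the median of that list, and they held 0.875, 2.25 and 0.997 CpG per 100 bp, against 6.49 in the start region.

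Flt4, the receptor of lymphatic endothelium, carried the highest replicate 1 peak among the members, just inside the gene. The region chr11:49422909-49424162 was 1254 bp wide, began 144 bp downstream of the start at position 49422765 and covered part of exon 1 and intron 1, with 7.18 CpG per 100 bp. Fold enrichment was 5.02 in replicate 1 and 4.23 in replicate 2, at the percentiles 97.6 and 75.2. The replicate 1 peak began 410 bp and the replicate 2 peak 144 bp downstream of the start, so that neither covered the start base. The printed window upstream of that base holds only 7 CpGs.

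A further Flt4 region was found in both replicates deep in the gene, 27566 bp downstream of the start. It spanned chr11:49450331-49450907, 577 bp over exons 20 and 21 of 30 and the introns around them. Fold enrichment was 2.94 in replicate 1 and 3.22 in replicate 2, at the low percentiles of 14.5 and 22.5, and the replicates shared only 41 bp. Replicate 1 alone added a peak of 212 bp in intron 1 with a fold enrichment of 3.35 and a peak of 268 bp over exon 13 and intron 13 with 2.61, lower than all but 0.696% of its list.

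Of the neuropilin regions, the one at Nrp1 and the inner one at Nrp2 were wide. At Nrp1 the region chr8:130880613-130883852 was 3240 bp wide, wider than 95.3% of merged regions, and reached 2360 bp upstream and 879 bp downstream of the start at position 130882973. Its fold enrichment, 3.25 and 3.87 in the replicates, was the lowest by mean among the start regions, 3.56 ± 0.445 (SD, n = 2). Nrp1 thus combined the widest start region with the lowest one, and the replicates shared 2355 bp of it. The region also overlapped the gene of the microRNA Mir1903.

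Nrp2 had regions found in both replicates at and beyond its start. The first, chr1:62749407-62750396, was 990 bp wide around the start at position 62749859, with a fold enrichment of 4.22 and 3.92. The replicates shared 925 bp of it, nearly all of its width. The second, chr1:62751678-62754902, was 3225 bp wide, wholly within intron 1 and from 1819 to 5043 bp downstream, with 4.53 in replicate 1 and 3.73 in replicate 2. The percentiles of these peaks were 89.2 and 93.9 in the list of replicate 1 and 65.0 and 56.7 in that of replicate 2.

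By the mean of both replicates, the start regions ranked Flt1 (4.71 ± 0.784), Flt4 (4.63 ± 0.559), Nrp2 (4.07 ± 0.213), Kdr (3.69 ± 0.437) and Nrp1 (3.56 ± 0.445; SD, n = 2 throughout). Every neighbouring pair in this order differed by less than the larger of its SDs, which also hold the shift between the libraries. Within each library Flt4 was above Nrp2 and Kdr above Nrp1, whereas Flt1 and Flt4, and likewise Nrp2 and Kdr, changed places between the libraries. The difference of 1.15 between Flt1 and Nrp1, at the ends of the order, was larger than either SD, and Flt1 was above Nrp1 in both libraries. No test was run on these pairs. Replicate 2 had the higher value at Kdr, Flt1 and Nrp1 and the lower one at Flt4 and Nrp2. Over all regions found in both replicates, the fold enrichment was higher in replicate 2 in 77.7%, with a median ratio of 1.14. Flt4 and Nrp2, with ratios of 0.842 and 0.929, were thus among the minority.

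**Figure D2:**
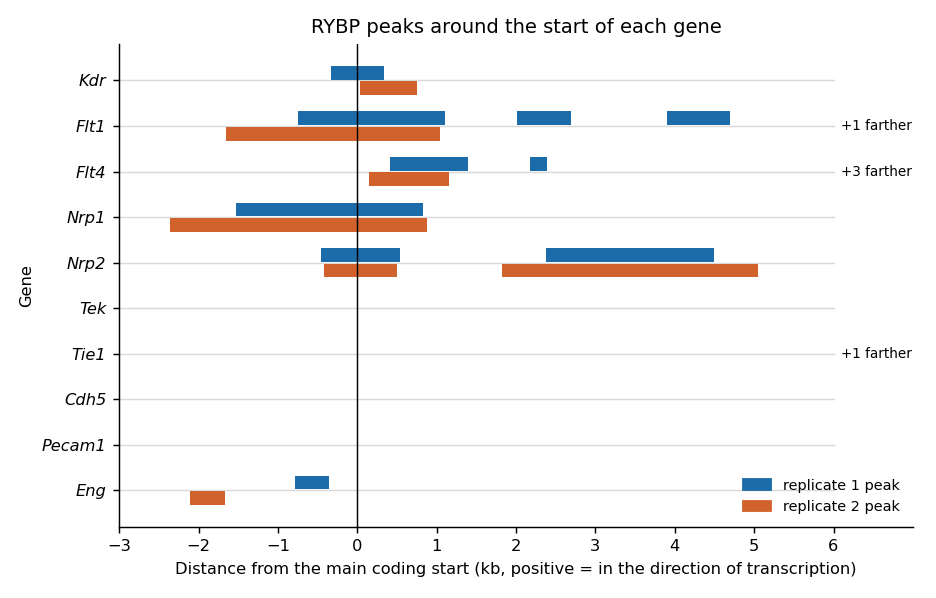
RYBP peaks of replicate 1 (blue) and replicate 2 (orange) around the main coding start of each gene, in kb, with positive distances in the direction of transcription. Peaks beyond 6 kb are counted at the right. The replicates overlap at the starts of Flt1, Nrp1 and Nrp2, are shifted against each other at Kdr, begin past the start at Flt4 and do not meet at Eng.

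At the angiopoietin receptors no region was found in both replicates. Tek, with a locus of 141 kb, held no peak of either replicate, and its start was 311 kb from the nearest merged region, itself found in both replicates. Of all genes, 9.93% had a start farther from a merged region. Tie1, with a locus of 23.9 kb, held 1 region, chr4:118154485-118155164, in replicate 1 alone. It was 680 bp wide, lay 7502 to 8181 bp downstream of the start over exon 9 and the introns beside it, and had a fold enrichment of 3.44 (−log10 q 2.38). The nearest region found in both replicates was 43.2 kb from the Tie1 start.

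Cdh5 and Pecam1, which encode the adhesion molecules of the endothelial junction, held no peak in loci of 47.9 and 101 kb. In their length classes 35.0% of loci of 20 to 50 kb and 19.3% of loci over 100 kb held no merged region. A replicate 2 peak lay 5.86 kb upstream of the Cdh5 start, outside the locus as defined here but inside one with a flank of 10 kb, and the nearest region found in both replicates was 68.3 kb away. For Pecam1 the nearest merged region was 72.3 kb from the main start and the nearest one found in both replicates 102 kb. For comparison, the median distance to a merged region was 2.28 kb over all genes and 75.4 kb over genes whose starts were all CpG-poor, as defined below.

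Eng had a weak peak in each replicate upstream of its start, and these did not overlap. The replicate 1 peak, chr2:32501328-32501762, lay 353 to 787 bp upstream with a fold enrichment of 2.83 (−log10 q 1.21), and the replicate 2 peak, chr2:32500012-32500443, lay 1672 to 2103 bp upstream with 3.05 (−log10 q 1.19). Their percentiles by fold enrichment were 6.31 and 8.63, among the lowest of either list. Both lay within the annotated extent of the neighbouring gene Ak1, an adenylate kinase, and held 0.690 and 1.16 CpG per 100 bp. The nearest region found in both replicates was 37.4 kb from the Eng start.

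The members with and without a start region in both replicates differed in a property that the choice of genes did not use. CpG density within 500 bp on each side of the main start was 6.09 per 100 bp at Kdr, 9.99 at Flt1, 5.29 at Flt4, 5.49 at Nrp1 and 9.19 at Nrp2. It was 1.90 at Tek, 2.10 at Tie1, 1.80 at Cdh5, 1.30 at Pecam1 and 3.50 at Eng. These groups of 5 did not overlap, with ranges of 5.29 to 9.99 and 1.30 to 3.50, and the median over all protein-coding genes was 3.90. In the same order of genes, the loci were 50.6, 169, 48.5, 151 and 120 kb long with a region in both replicates. Those without one were 141, 23.9, 47.9, 101 and 41.1 kb long. Overlapping ranges do not set length apart from CpG density, and the part of length was not tested.

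The same relation held across the genome. A gene was called CpG-rich when any of its coding starts reached 3 CpG per 100 bp, and CpG-poor otherwise. Of CpG-rich genes, 58.2% had a region found in both replicates within 2.5 kb of a start, as did 4.46% of CpG-poor genes. Among the members, 5 of the 6 CpG-rich genes and 0 of the 4 CpG-poor genes did, Eng being the CpG-rich gene without one. Regions of either replicate lay in the start window of 81.8% of CpG-rich and 10.6% of CpG-poor genes. In narrower steps, the share with a region in both replicates was 14.2% of genes with 1 to 2 CpG per 100 bp at the main start, where Tek, Cdh5 and Pecam1 fell, and 19.2% at 2 to 3, where Tie1 fell. It was 33.7% at 3 to 4, the step of Eng, 51.2% at 5 to 6, the step of Flt4 and Nrp1, 55.0% at 6 to 7, the step of Kdr, and 77.7% at 8 and above, the step of Flt1 and Nrp2. The part of sequence composition in peak detection was not tested.

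**Figure D3:**
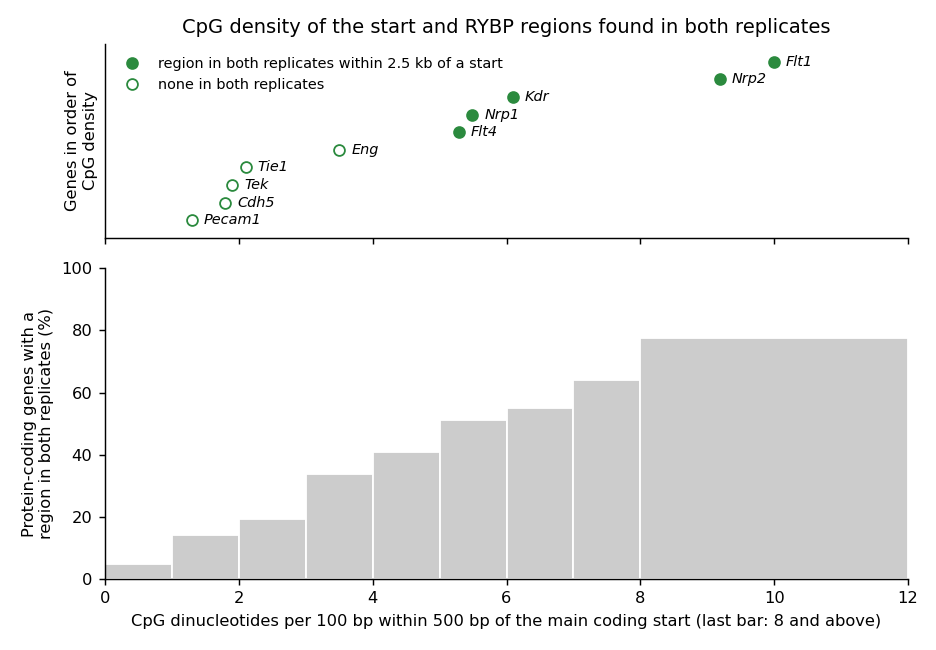
Top, CpG density (CpG per 100 bp within 500 bp of the main coding start) of the 10 genes, filled where a region found in both replicates lay within 2.5 kb of a start. Bottom, percentage of all protein-coding genes with such a region in each class of CpG density. The filled genes sit at 5.29 and above and the open ones at 3.50 and below, and the share of all genes rises from 4.89% to 77.7%.

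The regions themselves followed the same pattern. The 7 regions found in both replicates held 4.16 to 9.39 CpG per 100 bp, and the median over all such regions was 6.02. Of the 8 regions of a single replicate, 7 held less than 2.5, the exception being the Flt4 peak over exon 13 with 6.34. Single-replicate regions had fold enrichments of 2.61 to 3.44 and none was wider than 1 kb, and 6 of the 8 had a −log10 q below 2. The inner Flt4 region and the first Nrp2 region, both found in both replicates, were under 1 kb too. The inner Flt4 region also fell within the single-replicate range of fold enrichment in both replicates. In replicate 1 the start regions of Kdr (3.38) and Nrp1 (3.25) did too. A region found in both replicates is the union of its peaks and so at least as wide as either. Over all merged regions the medians were 4.09 CpG per 100 bp and 767 bp, against 6.02 and 1421 bp for those found in both. The shares given for single-replicate regions were not computed over the whole list, so no trait particular to these loci is shown.

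These 9 promoter windows were also searched on both strands for the E-box CANNTG, which reads alike on both strands and is the kind of site SCL binds with its partners, for the ETS core GGAA and for GATA. E-boxes were in 6 of the 9 windows and in those of 70.5% of all protein-coding genes. The ETS core was in 9 of 9 and in 95.7%, and GATA in 5 of 9 and in 58.8%. Matches were counted without regard to overlap with other motifs. Such short motifs were thus about as frequent in these windows as in those of all genes, and a match describes letters and not binding.

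Around the receptors, 51 further genes, called pathway genes here, were examined by class. Besides ligands, partner receptors, junction genes and markers they included 10 upstream transcription factor genes and the Kdr neighbours Pdgfra and Kit. A merged region lay at 39 of the 51 loci (76.5%) and a region found in both replicates at 28 (54.9%), against 57.1% and 38.9% of all loci. Unlike for the members, locus length was not taken into account in these shares or in those of the classes below. The 28 included 9 of the 10 factor genes and 2 of the 2 Kdr neighbours. The others were 6 of 15 ligand genes, 3 of 8 partner receptors, 4 of 8 junction genes and 4 of 8 markers. Each of the 28 had a region found in both replicates at a start. Of the 33 CpG-rich genes 26 had one at a start (78.8%), and of the 18 CpG-poor genes 2 did (11.1%), the ETS factor gene Etv2 and the SoxF factor gene Sox17. The division seen among the receptors was thus present among the pathway genes too, beside 58.2% and 4.46% of all CpG-rich and CpG-poor genes.

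Among 15 ligand genes, 9 loci held a merged region and 6 held one found in both replicates, shares near the 57.1% and 38.9% of all loci. By the lower of the replicate fold enrichments the highest was Vegfa, the ligand of KDR and FLT1, with 4.45 and 4.63. In replicate 2 Sema3c (5.62) and Sema3f (5.01) were higher. Of the 5 VEGF ligand genes, 4 had a region in both replicates at a start (Vegfa, Vegfb, Vegfc and Pgf) and Figf, which encodes VEGF-D, had none. Of the 3 angiopoietin genes, 0 had a region in both replicates, Angpt1 and Angpt2 had no region, and Angpt4 had one in replicate 1 alone. The class 3 semaphorins fell between, with 2 of 5 (Sema3c and Sema3f) occupied in both replicates and no region at Sema3g, and the endoglin ligand genes Gdf2 and Bmp10 had none. Counting regions found in both replicates, 4 of 5 VEGF ligand and 3 of 3 VEGF receptor genes were thus occupied, against 0 of 3 angiopoietin and 0 of 2 Tie receptor genes, while Angpt4 and Tie1 each held a region of replicate 1 alone. The families are small and the difference between them was not tested. This grouping of ligands by family, and the names beyond the highest gene of each class and those without a region, were chosen after the values were seen. CpG density at the main start was 2.00 to 2.40 per 100 bp at the angiopoietin genes and reached 10.2 at Vegfc among the VEGF genes, with Figf lowest.

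In the following classes too, genes were ranked by the lower of their replicate fold enrichments, and counts stand beside the same shares of all loci, 57.1% and 38.9%. Of 8 partner receptors, 6 loci held a merged region and 3 one found in both replicates. The highest was Plxnd1, a semaphorin receptor, with 4.53 and 6.36, and Aplnr, the apelin receptor, and Calcrl, an adrenomedullin receptor, had no region. Of 8 further junction genes, 6 held a merged region and 4 one found in both, and F11r and Ctnnd1 had none. Jup (plakoglobin) led with 3.59 and 4.0, although Cldn5 was higher in replicate 2 at 4.26. F11r, with 4.70 CpG per 100 bp, was the CpG-rich gene without any region. Of 8 endothelial markers, 6 held a merged region and 4 one in both, led by Cd34 with 3.34 and 3.52, although its replicate 2 value was the lowest of these 4, and Emcn and Icam2 had none. Of 10 transcription factor genes that act upstream of endothelium, all 10 held a merged region and 9 one found in both replicates, Erg being the exception, led by Sox18 with 4.49 and 4.82. The share of factor genes occupied in both replicates was thus larger than that of the ligand, receptor, junction and marker classes, and the classes were compared only as counts. All of these lists, the factor genes included, were set with earlier results of these data known. No conclusion about the classes is therefore drawn from this difference.

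**Figure D4:**
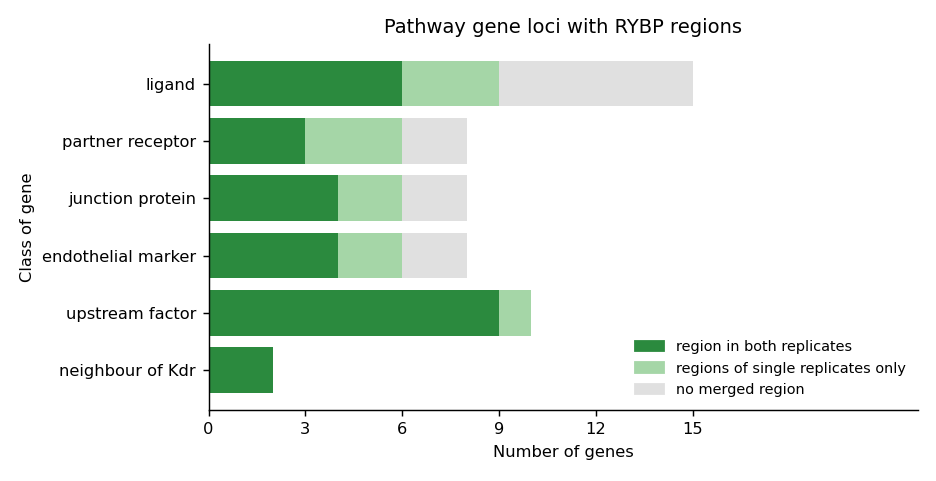
Number of pathway genes in each class whose locus held a region found in both replicates (dark green), merged regions of single replicates only (light green) or no merged region (grey). Of 10 upstream factor genes 9 held a region in both replicates, and of 15 ligand genes 6 did.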

How the data were processed

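RYBP peaks were read from 2 ChIP samples of 1 group, as the labels give it. Per the study's methods, chromatin was fixed with ethylene glycol bis succinimidylsuccinate and formaldehyde, and paired-end reads were aligned to mm9 with duplicates removed. The submitters' processing notes name Bowtie 1.1.2b, MACS2 2.0.10 and bedtools. MACS2 was run by the authors with its broad option on each replicate. Each deposited peak has a fold enrichment (a ratio on a linear scale), the −log10 of its p-value, the −log10 of its q-value and a score, the last being 10 times the −log10 q without its decimals. A broad peak carries the authors' average over its width, so a narrow summit within it is not shown. The deposited merged list has positions only and equals the union of both peak lists.

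Starts of replicate 2 were moved by 1 bp to match the other lists. Overlap meant at least 1 bp. Genes came from the GENCODE vM1 annotation of the same build, on chromosomes that hold peaks. Coding starts within 500 bp of each other were linked into clusters. CpG density was counted 500 bp on each side of the main start. Windows of 300 bp were cut from the reference, and 22202 of them gave the share of all promoters with a motif. The window of 1 member is not reported here. Exact intervals are at the 95% level (scipy 1.17.1, Python 3.11.15, numpy 2.4.6). Peaks were compared as descriptions, without a test, since there is 1 group of 2 samples. The overlap code was tested on simulated data.

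All 10 members are named, together with the pathway gene of highest smaller fold enrichment in each class, every pathway gene with no merged region, and the Kdr neighbours Pdgfra and Kit. Members and lists were chosen with earlier results of these data known. The settings varied were the peak threshold (a −log10 q of 2 or a fold enrichment of 3 as the minimum), equal numbers of peaks, each replicate alone, other flanks (0, 10 or 50 kb), other start windows and stricter overlap. The inputs were not analysed here. The peak lists carry no read counts, and the library totals that the study lists were not used, so no precision was derived from depth.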

Additional observations from a re-analysis of the deposited data

How the results depend on the processing

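The loci with a region found in both replicates numbered 5 under every alternative that was run except a flank of 50 kb upstream, which added Eng (6). The share of all loci moved from 29.8% to 51.9% over these settings. Those with any merged region ranged from 6 to 9, with Eng lost at a −log10 q of at least 2 or with no flank, Tie1 lost without replicate 1 (6), Cdh5 gained at 10 kb upstream and Pecam1 as well at 50 kb, while the share of all loci moved from 43.9% to 68.6%. The number of merged regions depended on the settings most, at 15 as reported, 9 with a −log10 q of at least 2 and 26 with 50 kb upstream. Leaving out 1 replicate gave 8 regions without replicate 1 and 14 without replicate 2. The share of replicate 2 peaks that overlapped a replicate 1 peak rose from 87.5% to 100% when a gap of up to 1 kb was allowed, the added peak being that at Eng. It fell to 62.5% (5 of 8) when 50% of the peak had to be covered. For replicate 1 peaks, 7 of 14 as reported, the share was 64.3% (9 of 14) with the gap. With the stricter overlap it was 35.7% (5 of 14). Requiring the start base itself inside a region found in both replicates gave 4 genes, without Flt4. The alternatives to that start count were chosen after seeing the data. A count of regions in both replicates cannot be had from 1 replicate and was not run. The groups by CpG density remained apart in windows of 250 bp, at 4.19 to 11.6 and 1.20 to 3.19 per 100 bp. No paired analysis was possible because the inputs that share the replicate numbers were not analysed here and the result comes from no test. Without read counts per locus, the absence of a peak at Tek, Cdh5 or Pecam1 sets no upper limit on RYBP there.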
